A study of Drosophila melanogaster with 27 samples.

Results

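The proteins of the cytosolic ribosome are described here through their mRNAs in fly heads, by fraction and genotype. The genes were chosen by name alone, as every gene whose FlyBase symbol starts with RpL or RpS, and 92 of the 17529 genes in the count table met that rule. Of these, 50 belong to the large subunit, 4 to the P-stalk of the large subunit or its paralogs, and 38 to the small subunit. The study asked which mRNAs associate with human TDP-43 in mushroom body Kenyon cells. It made RNA-seq libraries from whole heads of adult flies on days 1 to 3, with males and females pooled. YFP-tagged protein was pulled from each head lysate with GFP-Trap beads, and RNA was sequenced from the immunoprecipitate (IP), from what the beads left behind (unbound) and from the lysate before the pull-down (input).

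The genotypes were TDP-43 WT (w; UAS TDP43WT-YFP, UAS mCD8-RFP), TDP-43 G298S (w; UAS TDP43G298S-YFP, UAS mCD8-RFP, a patient-derived amino acid change) and the control YFP (yw;;UAS-2XEYFP). All carried the same split GAL4 driver, SS01276, which is active in the Kenyon cells of the α/β and γ lobes, so the tagged protein was present in a small share of the cells lysed. The YFP flies lacked the mCD8-RFP transgene and differed in genetic background. The paper also states, without showing the data, that YFP alone reached much higher levels than the tagged TDP-43 in the cytoplasm. It therefore found the part played by YFP itself hard to judge. Each genotype had 3 lysates of many pooled heads, and each lysate gave all 3 fractions, for 27 libraries. The lysates are called W1 to W3 for TDP-43 WT, S1 to S3 for TDP-43 G298S and Y1 to Y3 for YFP, and values per lysate are given in that order. The library labels of W1, W2, S1 and S2 share a numeric prefix, as do those of W3, S3 and Y3, and those of Y1 and Y2. A difference between genotypes therefore could not be told apart from the prefix for 2 of the 3 YFP lysates. In these bulk samples, fewer cells of a type and less RNA per cell cannot be told apart either.

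Ribosomal proteins assemble with ribosomal RNA in the nucleolus into a small subunit, which holds the mRNA and decodes it, and a large subunit, which forms peptide bonds. The P-stalk, made of RpLP0 with RpLP1 and RpLP2, recruits and activates the elongation factors. The mRNAs are short, abundant in every cell, and controlled together at translation through growth signalling. Several Drosophila ribosomal proteins have a second gene, some of them mainly used in the germ line, and 2 names in the family, RpLP0-like and RpL24-like, belong to orthologues of yeast ribosome assembly factors (Mrt4 and Rlp24) rather than to parts of the finished ribosome.

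Library totals ran between 1848426 and 157035496 assigned counts, and the shallowest library was the IP of lysate S1. Mitochondrially encoded and rRNA genes took 10.7% to 21.8% of the counts in IPs, 29.1% to 51.1% in unbound fractions and 28.7% to 49.6% in inputs. Of the Kenyon cell markers ey, Fas2, dac, mub, sNPF, rut, dnc and prt, none was at 0. Their summed level was 1181 to 1640 CPM in TDP-43 WT IPs, against 486 to 837 CPM in the inputs. It was 1224 to 1684 CPM in TDP-43 G298S IPs, against 702 to 762 CPM in the inputs, and 423 to 1191 CPM in YFP IPs, against 271 to 369 CPM in the inputs. CPM is a count relative to the library size, which was corrected here by edgeR's trimmed mean of M-values.

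Most of the 92 genes were expressed at high and similar levels. The highest levels per kilobase of exon over all libraries were those of RpL39, which lines the exit tunnel of the large subunit, RpL41, its smallest protein, RpL40, which is made as a fusion with ubiquitin, RpS25 of the small subunit head and the stalk protein RpLP1. In inputs RpL39 (FBgn0023170) stood at 411 ± 33.9 CPM per kb in TDP-43 WT, 603 ± 48.7 in TDP-43 G298S and 816 ± 279 in YFP (mean ± SD, n = 3 lysates each). RpL41 (FBgn0066084) stood at 455 ± 55.7, 666 ± 92.3 and 690 ± 200.4 CPM per kb in the inputs of TDP-43 WT, TDP-43 G298S and YFP in that order, and RpL40 at 431 ± 81.2, 637 ± 118 and 629 ± 127. These neighbours did not differ beyond their spread. The exon models of RpL39 and RpL41 are only 288 and 320 bases long, and a level per kilobase is less certain for models this short. RpS25 stood at 339 ± 114 CPM per kb in TDP-43 WT inputs, 500 ± 95.1 in TDP-43 G298S inputs and 741 ± 211 in YFP inputs, and RpLP1 at 382 ± 13.8, 545 ± 96.7 and 639 ± 178.

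**Figure D1:**
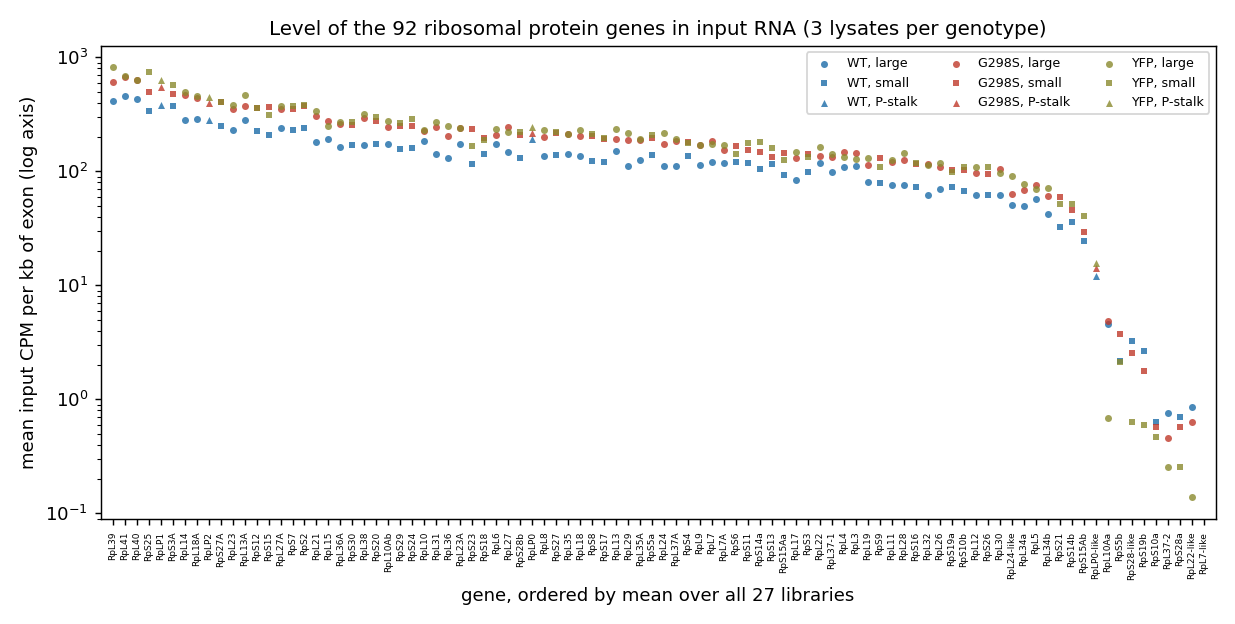
Mean level in input RNA of each gene (CPM per kilobase of exon, log axis), with genes ordered by their mean over all 27 libraries and 3 lysates behind each point. The colour gives the genotype and the shape the subunit. Most genes lie within a band, RpLP0-like lies at its lower edge, and 8 paralogs lie far lower. RpL7-like had no count in the inputs and has no point.

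The paralogs were far from equal. At the low end RpL10Aa, RpS5b, RpS28-like, RpS19b and RpL22-like had the lowest levels of the genes that passed the filter on low counts. RpL10Aa averaged 4.63 ± 3.75, 4.84 ± 2.69 and 0.690 ± 1.19 CPM per kb in the inputs of TDP-43 WT, TDP-43 G298S and YFP. RpL22-like, known in flies as a germline-enriched paralog of RpL22, averaged 0.850 ± 0.596, 0.636 ± 0.163 and 0.138 ± 0.239. RpS5b, a germline paralog of RpS5a, averaged 2.15 ± 1.46, 3.73 ± 2.58 and 2.14 ± 2.27 in the same order, with overlapping lysates. The 4 genes that did not pass in the IP and input libraries were RpS10a, RpL37-2, RpS28a and RpL7-like. RpL7-like had 1 count over all 27 libraries, and 98.8% of its exon bases lie under exons of another gene.

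In the pairs RpL10Ab and RpL10Aa, RpL22 and RpL22-like, RpL37-1 and RpL37-2, RpS5a and RpS5b, RpS10b and RpS10a, RpS19a and RpS19b, and RpS28b with RpS28a or RpS28-like, the first gene held at least 94.2% of the summed level per kilobase in every input. RpL34a and RpL34b were close to equal, with RpL34a at 49.6% to 55.7% of the pair in the 9 inputs. RpS14a took 73.1% to 79.4% of its pair with RpS14b, and RpS15Aa took 75.1% to 85.0% of its pair with RpS15Ab. How reads matching near-identical copies were counted is not given in the sources used here, so the split of such pairs is uncertain. RpLP0 held 92.7% to 95.8% of the level summed with RpLP0-like, and RpL24 held 63.0% to 74.3% with RpL24-like.

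Several of the low paralogs followed the lysate, but RpS10a did so less clearly. It had 28 counts over the 6 libraries of lysates Y1 and Y2. In inputs RpS10a averaged 0.640 ± 0.270, 0.575 ± 0.214 and 0.466 ± 0.272 CPM per kb in TDP-43 WT, TDP-43 G298S and YFP. RpL10Aa, RpL22-like and RpS28-like had 0 counts in all 6 libraries of lysates Y1 and Y2, which with 136621582 counts in all allows a level of up to 0.0220 CPM (3 counts, counting error only). In the other 21 libraries they had counts in 20, 19 and 19, and RpL10Aa summed to 2041 counts there. Over RpL10Aa, RpL22-like, RpL37-2, RpS19b, RpS28-like and RpS28a, a group chosen after the values were seen, YFP inputs held 3 counts in lysate Y1, 2 in lysate Y2 and 93 in lysate Y3. The same sum was 977, 71 and 275 counts in TDP-43 WT inputs (W1, W2 and W3) and 108, 282 and 964 in TDP-43 G298S inputs (S1, S2 and S3). Scaled for depth, the order within the TDP-43 genotypes changed. The sum was then 8.75, 1.92 and 13.8 CPM in TDP-43 WT inputs and 3.24, 10.1 and 7.84 CPM in TDP-43 G298S inputs. In YFP inputs it was 0.164, 0.0988 and 4.31 CPM.

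Testis markers (Mst84Da, Mst87F, Mst98Ca, dj and betaTub85D) were low in the same Y1 and Y2 lysates. Their summed level was 154, 43.5 and 342 CPM in TDP-43 WT inputs, 76.2, 260 and 187 CPM in TDP-43 G298S inputs, and 0.712, 0.642 and 60.2 CPM in YFP inputs. Ovary follicle cell markers (Cp15, Cp16, Vm26Aa, Vm26Ab and psd) summed to 11.4, 20.7 and 0.352 CPM in TDP-43 WT inputs, 49.1, 0.502 and 16.3 CPM in TDP-43 G298S inputs, and 0.0548, 0.0494 and 33.4 CPM in YFP inputs, so they too were lowest in Y1 and Y2. Germline markers (vas, bam, osk, aub and piwi) were at 6.58 to 10.4 CPM in TDP-43 WT inputs and 8.36 to 14.9 CPM in TDP-43 G298S inputs, against 5.09 to 7.66 CPM in YFP inputs. Heads should hold neither testis nor ovary, and the part of such tissue in the counts of these paralogs was not tested. RpS5b had 5, 28 and 96 counts in the YFP inputs, so within YFP it was lowest in Y1 and Y2, though not absent there. Unlike the testis and ovary follicle cell markers, it was not lower in Y2 than in all TDP-43 inputs. The Y2 input held 28 RpS5b counts of 20463623, against 20 of 36171288 in the S2 input. RpS5b had 143, 135 and 24 counts in TDP-43 WT inputs and 161, 20 and 628 in TDP-43 G298S inputs. In each TDP-43 genotype the input with the fewest RpS5b counts was the one with the lowest ovary follicle cell markers. These counts were not scaled for depth, and the W1 input had 102115249 counts in all, against 18692447 in W3. The fewer RpS5b counts of W3 thus do not by themselves show a lower level than in W1. In YFP the low lysates are the 2 that share a label prefix.

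**Figure D2:**
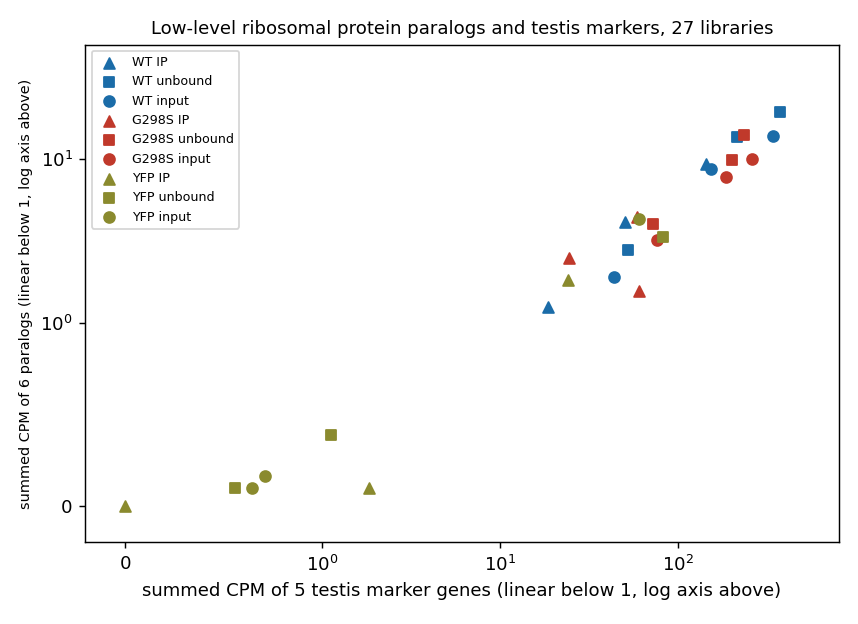
Summed level of 6 low paralogs (RpL10Aa, RpL22-like, RpL37-2, RpS19b, RpS28-like and RpS28a) against that of 5 testis markers, in CPM, both axes linear below 1 and logarithmic above. Each point is 1 of 27 libraries, with colour for genotype and shape for fraction, and the 3 fractions of a lysate are not independent. The 6 libraries of lysates Y1 and Y2 lie in the lower left corner, at 0 to 0.390 CPM of the paralogs.

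Apart from those paralogs most genes varied together. Over the 27 libraries, the correlation of each gene's log2 CPM with the mean of the other tested genes had a median of 0.95, and 74 of 88 genes were above 0.9. This describes libraries that share lysates, scaling and depth. RpLP0-like was the exception among well-counted genes, at -0.41, and RpL24-like (0.64) and RpS23 (0.66), a protein of the decoding centre, came next among genes outside the low paralogs. The 3 lowest of all tested were RpLP0-like, RpS19b (0.25) and RpL10Aa (0.32), of which the last 2 are low paralogs.

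The share of counts taken by the 92 genes depended on the fraction and on what was counted in the total. Of all counts, it was 1.401 ± 0.0802% in TDP-43 WT IPs, against 1.14 ± 0.0755% in the inputs, 1.36 ± 0.233% in TDP-43 G298S IPs, against 1.25 ± 0.144% in the inputs, and 1.46 ± 0.444% in YFP IPs, against 1.70 ± 0.279% in the inputs (mean ± SD, n = 3 lysates each). With mitochondrially encoded and rRNA genes left out of the total, the shares became 1.61 ± 0.0874% in TDP-43 WT IPs, against 1.75 ± 0.201% in the inputs, 1.58 ± 0.252% in TDP-43 G298S IPs, against 2.44 ± 0.229% in the inputs, and 1.83 ± 0.592% in YFP IPs, against 2.44 ± 0.412% in the inputs. The order of the means of IP and input thus turned round with the total in each TDP-43 genotype, but not in every lysate. Of all counts the share was 1.28% in the IP of S1, against 1.42% in its input, and 1.17% in both fractions of S2. In W1 it was 1.58% in the IP, against 1.57% in the input, with those genes left out. With those genes left out, the IPs of the TDP-43 genotypes overlapped and TDP-43 WT inputs were the low ones, at 1.57%, 1.72% and 1.97%, against 2.29% in the lowest TDP-43 G298S input. Changes are therefore also given relative to the median change of all genes tested.

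**Figure D3:**
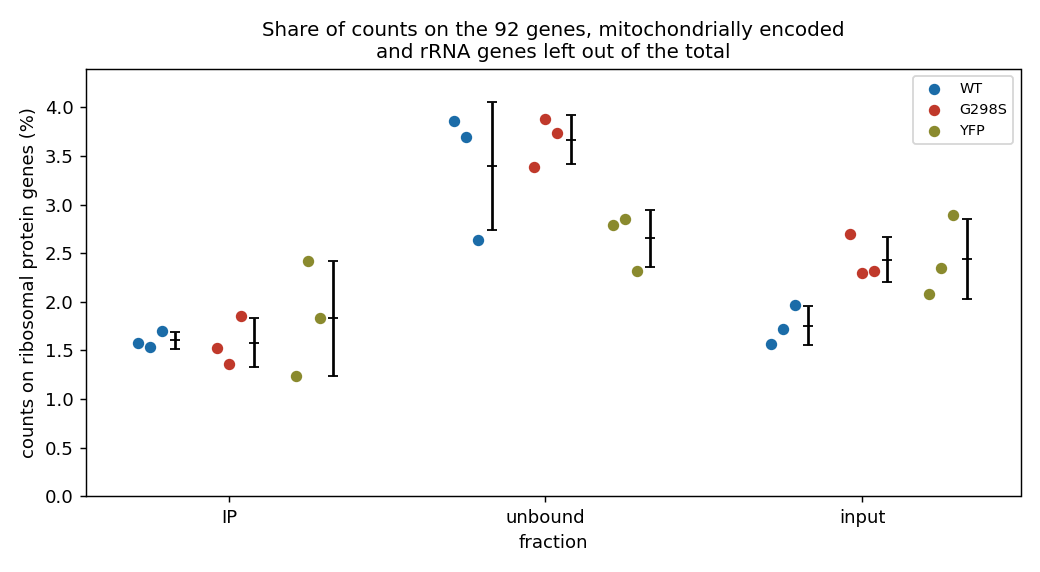
Share of counts on the 92 genes (percent) in each library, after mitochondrially encoded and rRNA genes were left out of the total. Points are lysates, coloured by genotype, and bars are the mean ± SD of 3 lysates. The unbound fractions of TDP-43 WT (2.64% to 3.86%) and TDP-43 G298S (3.39% to 3.88%) hold the highest shares.

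In TDP-43 WT IPs the ribosomal protein mRNAs as a group stood at about the level of the input. Of 88 genes tested, 6 fell (11.5% of all genes tested did) and 2 rose (16.3% of all genes did). By the study's rule of a log2 fold change above 1 with an adjusted p below 0.05, only RpLP0-like was enriched (10.5% of all genes), and none was below -1 (3.03% of all genes), by edgeR at an unadjusted p or by DESeq2 either. The median log2 fold change was -0.04, against -0.09 for all genes tested. By lysate, the median of the group minus that of all genes was 0.32 in W1, -0.09 in W2 and -0.00 in W3. With the unbound fraction in place of the input 76 genes fell, and the group's median lay 0.90 below that of all genes. The share of all genes that fell in that fit is not given here.

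RpLP0-like, the Mrt4 orthologue that holds the place of RpLP0 during assembly of the large subunit in yeast, had 33.1, 42.2 and 29.8 CPM in TDP-43 WT IPs, against 12.9, 13.9 and 7.34 CPM in the inputs. All IPs were above all inputs, with a log2 fold change of 1.57 (SE 0.20, edgeR quasi-likelihood test, Benjamini-Hochberg adjusted p = 3.11e-05). RpL24-like, the Rlp24 orthologue, had 63.5, 73.8 and 67.1 CPM in the IPs, against 40.2, 43.2 and 34.2 CPM in the inputs. The fractions did not overlap either, and the log2 fold change was 0.75 (SE 0.16, edgeR adjusted p = 0.00233), but with the unbound fraction in place of the input it was -0.31. RpS23 had 169, 163 and 188 CPM in the IPs, against 61.1, 119 and 122 CPM in the inputs (log2 fold change 0.74, edgeR adjusted p = 0.0568), and passed the threshold only in some settings, among them DESeq2 and the fit with lysate as a block, in each of which 3 genes rose.

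The 6 that fell in TDP-43 WT IPs were RpLP0, RpLP1, RpL13A, RpL22, RpS2 and RpL13. RpLP0, the base of the stalk, had 127, 154 and 147 CPM in the IPs, against 288, 247 and 236 CPM in the inputs. Every IP was below every input, and the log2 fold change was -0.90 (SE 0.15, edgeR adjusted p = 0.000347). RpLP1 had 188, 168 and 197 CPM in the IPs, against 284, 305 and 290 CPM in the inputs (log2 fold change -0.72, SE 0.21). RpL13A had 166, 166 and 174 CPM in the IPs, against 273, 245 and 245 CPM in the inputs (-0.65, SE 0.20). RpS2, near the mRNA entry channel of the small subunit, had 196, 189 and 205 CPM in the IPs, against 215, 320 and 334 CPM in the inputs (-0.61, SE 0.21), and RpL22 86.8, 99.9 and 79.4 CPM in the IPs, against 104, 137 and 151 CPM in the inputs (-0.62, SE 0.20). None of these overlapped between fractions. Exons of another gene cover 34.3% of those of RpL22. Without lysate W1, 2 genes fell, and without W2 or W3, 1 fell each. DESeq2 called 11. With library totals as the only scale, which moved the median of all genes to 0.28, 1 fell and 17 rose.

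In TDP-43 G298S IPs the group was lower. Of 88 genes, 54 fell (9.95% of all genes tested did), 31 of the large subunit, 20 of the small and 3 of the stalk, and 1 rose (12.6% of all genes did). RpLP0-like again was the only one with a log2 fold change above 1 (7.39% of all genes), and 18 fell below -1 (2.44% of all genes). The median log2 fold change was -0.74, against -0.16 for all genes tested, and only 3 genes lay above that of all genes. By lysate the group's median minus that of all genes was -0.72 in S1, -0.79 in S2 and -0.25 in S3. Without lysate S1, 15 genes fell, and without S2, 21 fell. With mitochondrially encoded and rRNA genes left out 34 fell. With library totals as the only scale none fell and 10 rose, while the median of all genes moved to 0.72, yet the group's median stayed 0.59 below it.

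RpL38, whose loss in the mouse disturbs translation of Hox mRNAs, had 129, 99.4 and 138 CPM in TDP-43 G298S IPs, against 331, 294 and 275 CPM in the inputs (log2 fold change -1.38, SE 0.24, edgeR adjusted p = 0.000744). RpL39 had 58.0, 44.8 and 112 CPM in the IPs, against 189, 169 and 163 CPM in the inputs (-1.35, SE 0.35). RpL30 had 27.3, 30.2 and 46.6 CPM in the IPs, against 103, 75.1 and 73.8 CPM in the inputs (-1.34, SE 0.30). Exons of another gene cover 25.1% of those of RpL30. In each of the 3 genes the IP of S3 was the highest IP and still lay below all inputs. RpLP1, with 168, 176 and 221 CPM in the IPs, against 504, 382 and 370 CPM in the inputs, and RpL13A, with 132, 135 and 188 CPM in the IPs, against 387, 320 and 303 CPM in the inputs, fell by 1.23 each on the log2 scale. RpLP0-like had 45.4, 34.1 and 43.2 CPM in the IPs, against 15.6, 12.5 and 12.0 CPM in the inputs (1.52, SE 0.20, edgeR adjusted p = 6.19e-05). RpL24-like had 53.0, 56.0 and 60.6 CPM in the IPs, against 56.1, 45.4 and 46.6 CPM in the inputs (0.11, SE 0.16), which overlap.

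In the control YFP IPs, which hold no TDP-43, 18 of 88 genes fell (9.99% of all genes tested did) and 1 rose (15.9% of all genes did). RpLP0-like was above 1 (10.3% of all genes), and RpLP1, RpL13A and RpL39 were below -1 (1.42% of all genes). The median log2 fold change was -0.41, against -0.14 for all genes. The lysates disagreed, with the group's median minus that of all genes at -0.59 in Y1, 0.01 in Y2 and -0.54 in Y3. Without lysate Y3, 4 genes fell, and without Y1, 9 fell. With library totals as the only scale 7 fell and 3 rose, with the median of all genes at 0.06.

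RpLP1 had 126, 269 and 235 CPM in YFP IPs, against 381, 447 and 644 CPM in the inputs (log2 fold change -1.13, SE 0.21, edgeR adjusted p = 0.00126). RpL13A fell by 1.07, RpL39 by 1.07, RpS2 by 0.97 and RpL38 by 0.96 on the log2 scale. RpLP0 had 126, 188 and 172 CPM in the IPs, against 269, 286 and 418 CPM in the inputs (-0.90, SE 0.15). All YFP IPs of RpLP1 and of RpLP0 were below all inputs. RpLP0-like had 30.2, 31.6 and 28.3 CPM in the IPs, against 13.5, 13.5 and 17.8 CPM in the inputs (1.11, SE 0.19, edgeR adjusted p = 0.000754), and RpL24-like had 55.8, 74.0 and 67.2 CPM in the IPs, against 50.9, 61.3 and 101 CPM in the inputs (0.00, SE 0.16). With lysate as a block 2 genes rose in YFP IPs, RpLP0-like and RpS23 (0.64).

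The lists of genes called lower overlapped between genotypes. The 6 genes that fell in TDP-43 WT IPs also fell in the IPs of TDP-43 G298S and of YFP, which is 100% of the list of TDP-43 WT, 11.1% of that of TDP-43 G298S and 33.3% of that of YFP. Of the 18 that fell in YFP IPs, 17 fell in TDP-43 G298S IPs (94.4% of the YFP list and 31.5% of the TDP-43 G298S list), the other being RpS15Ab. The list of TDP-43 G298S was the longest, at 54 of 88 genes. Of all 1487 genes that fell in TDP-43 WT IPs, 35.7% fell in the IPs of both other genotypes, and of all 1291 that fell in YFP IPs, 50.7% fell in TDP-43 G298S IPs. RpLP0-like had the highest ratio of IP to input of the 88 genes in 7 of 9 lysates and the second highest in W1 and S1. Its log2 ratio was 1.35, 1.59 and 2.01 in TDP-43 WT lysates, 1.53, 1.44 and 1.84 in TDP-43 G298S lysates and 1.16, 1.22 and 0.67 in YFP lysates. RpLP0, whose place it holds during assembly, had log2 ratios of -1.18, -0.68 and -0.68 in TDP-43 WT lysates, -1.11, -0.77 and -0.81 in TDP-43 G298S lysates and -1.10, -0.60 and -1.28 in YFP lysates. RpLP0-like was above 0 and RpLP0 below 0 in all 9 lysates.

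**Figure D4:**
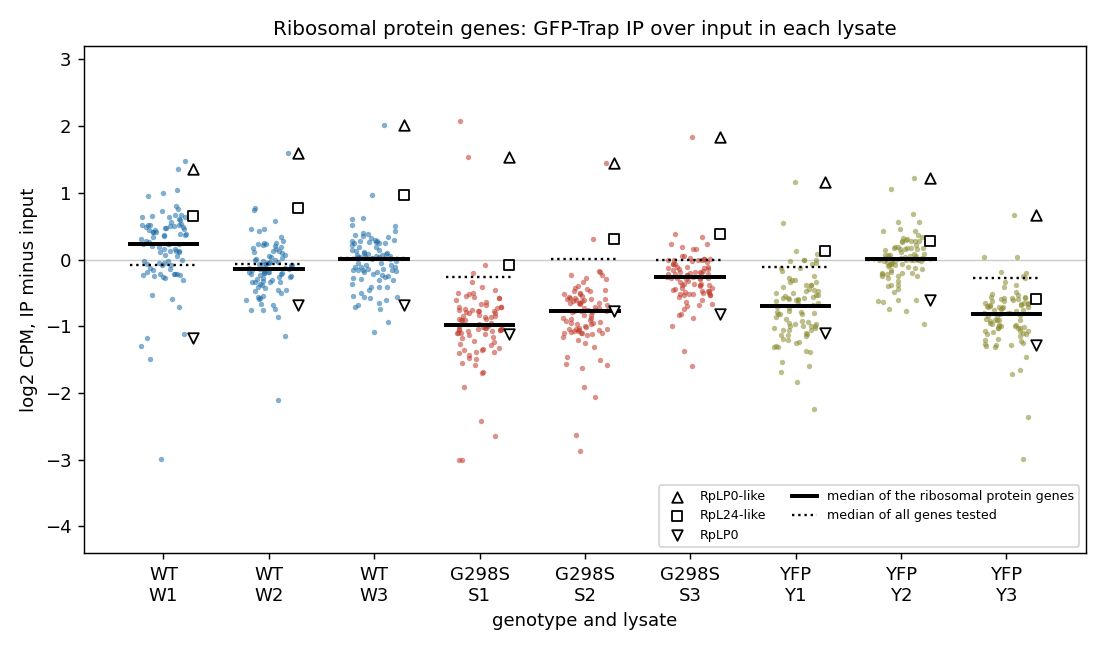
Log2 ratio of IP to input CPM (y axis) of the 88 genes tested, 1 coloured point per gene, in each of 9 lysates (x axis). The solid line is the median of these genes, the dotted line that of all genes tested, and open symbols mark RpLP0-like, RpL24-like and RpLP0, which are drawn to the right of the other points. 2 points below -3 are drawn at -3. The group's median lies 0.54 to 0.79 below that of all genes in S1, S2, Y1 and Y3, and RpLP0-like lies above 0 in every lysate.

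The test of whether IP over input differed between genotypes called none of these genes. For TDP-43 WT minus YFP the median difference was 0.36 on the log2 scale, against -0.00 for all genes. There 0 genes passed the threshold (1.45% of all genes did in either direction), and 5 had an unadjusted p under 0.05. For TDP-43 G298S minus YFP the median was -0.37, against -0.02 for all genes, with 0 past the threshold (0.797% of all genes passed) and 8 at an unadjusted p under 0.05. For TDP-43 WT minus TDP-43 G298S it was 0.72, against 0.07 for all genes, with 0 past the threshold (0.263% of all genes passed) and 56 at an unadjusted p under 0.05. The lowest adjusted p of the group was 0.336 by edgeR's quasi-likelihood test. Shares of all genes at an unadjusted p are not given here, so the counts of 5, 8 and 56 have none to be set against. DESeq2 also called 0 in each, while edgeR with library totals as the only scale called 3 for TDP-43 G298S minus YFP. With the unbound fraction in place of the input, the median of TDP-43 WT minus YFP relative to all genes became -0.46 and that of TDP-43 G298S minus YFP -0.74. With the label prefix as a term they were 0.83 and 0.10. No other genotype shares the prefix of Y1 and Y2, so that term leaves Y3 alone to inform the YFP side. The standard errors of these differences ran upward from 0.20, with a median of 0.32.

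All 3 TDP-43 WT lysates had a higher ratio of IP to input than all 3 YFP lysates in 17 of 88 genes (13.6% of all genes did) and a lower one in 1 (5.97% of all genes). TDP-43 G298S lysates lay above all YFP lysates in 1 gene (14.4% of all genes) and below them in 1 (10.2% of all genes). In 54 of 88 genes the ratio of IP to input was higher in all 3 TDP-43 WT lysates than in all 3 TDP-43 G298S lysates, as it was in 9.65% of all genes, and in 0 genes it was lower in all (6.01% of all genes were). Within shared label prefixes the median of the group minus that of all genes was 0.32 and -0.09 in lysates W1 and W2, against -0.72 and -0.79 in lysates S1 and S2. In the other prefix it was -0.00 in W3 and -0.25 in S3, against -0.54 in Y3. RpL30, for example, had log2 ratios of 0.47, -0.46 and -0.25 in TDP-43 WT lysates and -1.91, -1.31 and -0.66 in TDP-43 G298S lysates (difference 1.18, SE 0.41). The difference was 0.05 (SE 0.27) for RpLP0-like and 0.09 (SE 0.21) for RpLP0. The inputs entering this comparison were higher in TDP-43 WT for only 3 of the 88 genes. Within the group, exon length had a Spearman correlation of -0.50 with the log2 difference TDP-43 WT minus TDP-43 G298S. For TDP-43 WT minus YFP it was -0.32 and for TDP-43 G298S minus YFP 0.19, a description over 88 genes. Removing a trend on exon length left the medians at 0.41, -0.06 and -0.16 in TDP-43 WT lysates, -0.51, -0.63 and -0.22 in TDP-43 G298S lysates, and -0.41, 0.06 and -0.28 in YFP lysates.

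Markers of other cell types differed between IP and input as well. Fat body markers (Yp1, Yp2, Yp3, Lsp2, apolpp and Fbp1) summed to 9819 to 10944 CPM in TDP-43 WT IPs, against 18554 to 20550 CPM in the inputs. They summed to 9806 to 14048 CPM in TDP-43 G298S IPs, against 15580 to 28310 CPM in the inputs, and to 8411 to 12972 CPM in YFP IPs, against 15478 to 24991 CPM in the inputs. Glia markers ran the other way, at 3035 to 4176 CPM in TDP-43 WT IPs, against 1596 to 2005 CPM in the inputs, 3710 to 4700 CPM in TDP-43 G298S IPs, against 1726 to 1809 CPM in the inputs, and 4691 to 4800 CPM in YFP IPs, against 2353 to 2636 CPM in the inputs. None of these fat body and glia ranges overlapped between IP and input. Neuron markers were higher in IPs too, as the Kenyon cell markers were. They summed to 1470 to 2208 CPM in TDP-43 WT IPs, against 866 to 1499 CPM in the inputs, which overlap. The sums were 1445 to 1774 CPM in TDP-43 G298S IPs, against 1279 to 1314 CPM in the inputs. In YFP they were 812 to 1668 CPM in the IPs, against 519 to 692 CPM in the inputs. The part of these marker shifts in the IP results was not tested.

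Other genes of translation gave a mixed picture in the IPs. The ribosomal proteins whose symbols do not start with RpL or RpS, sta and Rack1, did not pass in TDP-43 WT IPs, fell in TDP-43 G298S IPs (2 of 2), and 1 of 2 fell in YFP IPs. Of 8 elongation factor genes 4 fell and 1 rose in TDP-43 WT IPs, and 5 fell in each of the IPs of TDP-43 G298S and of YFP. Of 17 ribosome biogenesis genes, 3 rose in the IPs of each genotype, while 4, 3 and 2 fell in those of TDP-43 WT, TDP-43 G298S and YFP. Of all genes tested, 11.5%, 9.95% and 9.99% fell and 16.3%, 12.6% and 15.9% rose in the same order. Of 71 mitochondrial ribosomal protein genes 4, 1 and 5 fell and 5, 3 and 1 rose in the same order. Their median log2 fold change was 0.16, -0.07 and -0.30, and the difference between these lists and the cytosolic ribosome was not tested.

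Before any pull-down, the group was lower in TDP-43 WT inputs than in YFP inputs. Of 88 genes 19 fell (7.37% of all genes tested did) and 0 rose (7.58% of all genes did, 1 gene was higher at an unadjusted p under 0.05 and DESeq2 called 0), with a median of -0.56, against 0.13 for all genes. RpS25 had 188, 382 and 302 CPM in TDP-43 WT inputs, against 494, 572 and 839 CPM in YFP inputs, with no overlap (log2 difference -1.04, SE 0.27, edgeR quasi-likelihood adjusted p = 0.0212). The large-subunit genes RpL28 (80.2, 117 and 116 CPM in TDP-43 WT, against 154, 197 and 254 CPM in YFP) and RpL24 (112, 157 and 150 CPM in TDP-43 WT, against 189, 228 and 401 CPM in YFP) had log2 differences of -0.86 each, and neither overlapped. RpL36 and RpL21 followed at -0.83 and -0.82. Exons of other genes cover 21.6% of those of RpL24.

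This count was not stable. It was 2 without lysate W1, 4 without W2, 6 without W3, 9 without Y2, 2 without Y3 and 52 without Y1, and 9 and 11 without lysates S1 and S3, which only lend their spread. It was 6 with the label prefix as a term, 8 with DESeq2's size factors and 1 in a fit of these inputs alone. The median relative to all genes stayed between -0.87 and -0.50 when a lysate was left out.

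In TDP-43 G298S inputs the group was close to YFP. 1 of 88 genes was lower (12.0% of all genes were) and 0 were higher (15.4% of all genes were, with 0 of the group higher at an unadjusted p under 0.05 or in DESeq2). The median was -0.03, against 0.09 for all genes. The one lower gene was RpL24-like, with 56.1, 45.4 and 46.6 CPM in TDP-43 G298S inputs, against 50.9, 61.3 and 101 CPM in YFP inputs. The groups overlap, the log2 difference was -0.46 (SE 0.16, edgeR adjusted p = 0.0434), and the call was lost in DESeq2 and in all but 4 of its 18 alternatives, among them those without S1, S2, S3, W2, W3, Y2 or Y3. Between the TDP-43 genotypes the median was -0.54 (TDP-43 WT minus TDP-43 G298S), against 0.05 for all genes. 0 of 88 genes passed (0.108% of all genes were lower at that threshold). At an unadjusted p under 0.05, 62 were lower, a count for which the share of all genes is not given here. DESeq2 called 5 lower.

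Nuclear genes of mitochondrial proteins were counted in the same inputs. Of 71 mitochondrial ribosomal protein genes 29 fell in TDP-43 WT inputs and 52 in TDP-43 G298S inputs relative to YFP, and of 87 nuclear genes of oxidative phosphorylation 47 and 60 fell. Of all genes tested, 7.37% and 12.0% fell in the same order. Mitochondrially encoded and rRNA genes took 30.1% to 37.4% of the counts in TDP-43 WT inputs and 47.5% to 49.6% in TDP-43 G298S inputs, against 28.7% to 32.05% in YFP inputs. Muscle markers (Act88F, Act57B, Mhc, Mlc2, up, wupA and TpnC4) summed to 4289 to 5506 CPM in TDP-43 WT inputs and 3604 to 6541 CPM in TDP-43 G298S inputs, against 7265 to 9399 CPM in YFP inputs. Glia markers (repo, alrm, Gs2, moody and Gat) summed to 1596 to 2005 CPM and 1726 to 1809 CPM in the inputs of the TDP-43 genotypes in that order, against 2353 to 2636 CPM in YFP inputs. Neither list overlapped with YFP. Photoreceptor markers overlapped between TDP-43 WT and YFP, with summed levels of 10428 to 16030 CPM in TDP-43 WT inputs and 8311 to 9224 CPM in TDP-43 G298S inputs, against 15833 to 17980 CPM in YFP inputs. Neuron markers (elav, nSyb, Syt1, brp and Rdl) summed to 866 to 1499 CPM in TDP-43 WT inputs and 1279 to 1314 CPM in TDP-43 G298S inputs, against 519 to 692 CPM in YFP inputs. None of these markers was at 0 throughout, and their part in the result was not tested.

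The unbound fraction gave the highest median change of the group. In TDP-43 WT, 82 of 91 genes tested rose in unbound RNA over input (9.10% of all genes tested did), with a median of 1.16, against 0.08 for all genes, and every one of the 91 lay above 0. In TDP-43 G298S 42 of 91 rose (9.63% of all genes did), with a median of 0.71, against 0.14 for all genes. In YFP 0 of 91 rose by edgeR (0.00% of all genes did, 1 of the group was higher at an unadjusted p under 0.05, and DESeq2 called 0), with a median of 0.15, against -0.10 for all genes. By lysate the group's median minus that of all genes was 1.48, 1.16 and 0.44 in TDP-43 WT (W1, W2 and W3), 0.37, 0.74 and 0.70 in TDP-43 G298S (S1, S2 and S3) and 0.56, 0.38 and -0.20 in YFP (Y1, Y2 and Y3). The YFP values overlap those of both other genotypes.

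RpL32, also known as rp49 and widely used as a reference gene in fly work, had 158, 175 and 84.9 CPM in TDP-43 WT unbound RNA, against 34.5, 53.4 and 59.4 CPM in the inputs (log2 fold change 1.51, SE 0.33, edgeR quasi-likelihood adjusted p = 0.00734). RpL29 had 142, 150 and 75.4 CPM in unbound RNA, against 28.5, 50.7 and 50.5 CPM in the inputs (1.501, SE 0.35), and RpS25 had 929, 850 and 616 CPM, against 188, 382 and 302 CPM (1.46, SE 0.28). RpL31 and RpL39 came after them, RpL31 at 1.41. In all of them lysate W3 was the lowest of the unbound samples and still lay above every input. Without lysate W1, 36 genes rose, and in a fit of these libraries alone none did.

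In TDP-43 G298S RpS25 had 805, 958 and 725 CPM in unbound RNA, against 523, 379 and 385 CPM in the inputs (log2 fold change 0.95, SE 0.27, edgeR adjusted p = 0.0275). The stalk proteins RpLP1 (797, 876 and 691 CPM, against 504, 382 and 370 CPM in the inputs) and RpLP2 (440, 505.2 and 403 CPM, against 296, 215 and 216 CPM in the inputs) rose by 0.91 and 0.89. RpS14b (0.89) and RpL34b (0.87) were next. No unbound sample of these genes lay below an input. This count depended on the fit, at 0 without any 1 of the TDP-43 G298S lysates or in a fit of these libraries alone, 12 without mitochondrially encoded and rRNA genes, 64 and 65 without lysates W3 and W1, 65 with lysate as a block, 79 in DESeq2 and 82 with library totals or a minimum of 10 counts in every library.

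**Figure D5:**
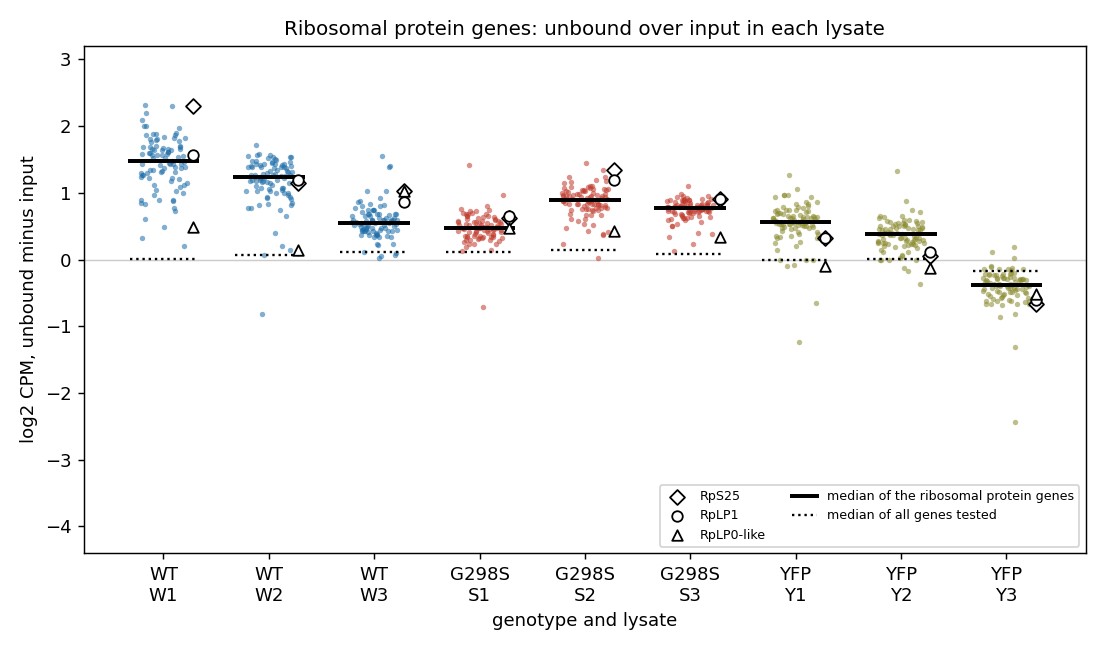
Log2 ratio of unbound to input CPM (y axis) of the 91 genes tested, 1 coloured point per gene, in each of 9 lysates (x axis), with the median of these genes as a solid line, that of all genes as a dotted line, and open symbols for RpS25, RpLP1 and RpLP0-like, drawn to the right. The group lies above all genes in 8 lysates and below them in Y3.

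RpLP0-like moved less than most of the group, with 18.2, 15.4 and 14.99 CPM in TDP-43 WT unbound RNA, against 12.9, 13.9 and 7.34 CPM in the inputs (log2 fold change 0.50, SE 0.20), and it passed in no genotype. RpL24-like rose with the group, by 1.10 in TDP-43 WT and 0.77 in TDP-43 G298S.

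The difference in unbound over input between genotypes, a comparison added after the data had been seen, passed for 21 of 91 genes in TDP-43 WT minus YFP (5.06% of all genes were higher), for 2 of 91 in TDP-43 G298S minus YFP (6.90% of all genes were higher) and for 0 of 91 in TDP-43 WT minus TDP-43 G298S (0.00% of all genes, 0 of the group at an unadjusted p under 0.05 and 0 in DESeq2). The medians of the group were 1.03, 0.56 and 0.44, against 0.14, 0.24 and -0.00 for all genes. RpS15Ab had 44.6, 31.7 and 29.1 CPM in unbound RNA of TDP-43 WT, against 17.6, 17.96 and 17.4 CPM in the inputs, and 30.4, 43.6 and 29.3 CPM in unbound RNA of TDP-43 G298S, against 21.7, 21.8 and 20.6 CPM in the inputs. In YFP it had 21.4, 25.2 and 25.5 CPM in unbound RNA, against 22.8, 28.5 and 37.4 CPM in the inputs. Its log2 ratio was above that of every YFP lysate in all TDP-43 lysates, and the difference from YFP was 1.29 in TDP-43 WT (SE 0.27, edgeR adjusted p = 0.0310) and 0.99 in TDP-43 G298S (SE 0.27, edgeR adjusted p = 0.0322).

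RpS25 (1.59), RpL38 (1.32), RpLP1 (1.32) and RpS26 (1.27) were the others with the largest differences for TDP-43 WT minus YFP. All 3 lysates of TDP-43 WT lay above all 3 of YFP in 42 of 91 genes (28.8% of all genes did), and those of TDP-43 G298S in 29 of 91 (33.6% of all genes did, so the share of the group is close to that of all genes). The count of 21 became 0 without W1 or W3, without S1, without Y2 or Y3, with the label prefix as a term and without mitochondrially encoded and rRNA genes, 3 without S3, 7 without W2, 43 without Y1, 42 with lysate as a block and 59 in DESeq2. The count of 2 became 5 with lysate as a block and 0 without any of the TDP-43 G298S lysates and without Y2 or Y3, and reached 10 without W1.

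Length went along with the change in unbound RNA. The tested genes of the group had a median exon length of 899 bases, against 1718 bases for all genes tested, and within the group the Spearman correlation of length with the log2 fold change was -0.40 in TDP-43 WT, -0.30 in TDP-43 G298S and 0.10 in YFP, a description over 91 genes. With a trend on exon length removed, the group's median relative to all genes became 0.90, 0.78 and -0.08 in TDP-43 WT lysates, 0.07, 0.21 and 0.41 in TDP-43 G298S lysates and 0.57, 0.38 and 0.05 in YFP lysates. Mitochondrial ribosomal protein genes moved in the same direction (42 and 51 of 71 rose in unbound RNA of TDP-43 WT and of TDP-43 G298S), as did nuclear oxidative phosphorylation genes (47 and 55 of 87). Of all genes tested, 9.10% and 9.63% rose in the same order. Neuron markers moved the other way, with summed levels of 362 to 971 CPM in TDP-43 WT unbound RNA, against 866 to 1499 CPM in the inputs, and 309 to 784 CPM in TDP-43 G298S unbound RNA, against 1279 to 1314 CPM in the inputs. In YFP they were 758 to 1239 CPM in unbound RNA, against 519 to 692 CPM in the inputs. Fat body markers summed to 22045 to 27060 CPM in TDP-43 WT unbound RNA, against 18554 to 20550 CPM in the inputs, with no overlap. They overlapped at 21082 to 39117 CPM in TDP-43 G298S unbound RNA, against 15580 to 28310 CPM in the inputs, and at 17345 to 19218 CPM in YFP unbound RNA, against 15478 to 24991 CPM in the inputs. The part of these shifts in the result was not tested.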

How the data were processed

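RNA from the IP, unbound and input fractions of 3 lysates per genotype was made into SMART-Seq HT PLUS libraries from 1 ng of total RNA. The authors deposited raw counts of reads per gene, which they made with cutadapt 2.7, STAR 2.6.1d and featureCounts 1.6.3 according to the methods and the processing notes of the submitters. The strand setting and the handling of reads with several matches are not given in the sources used here. The values are whole-number counts with no normalization, in 1 table of 27 libraries. Symbols and the length of each gene's exons were read from the Ensembl annotation of the fly, which named 17425 of 17529 gene IDs. Exon coordinates served only for lengths and for overlaps between genes, and no sequences were used.

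Counts were tested with edgeR 4.0.16 (R 4.3.3) by its quasi-likelihood test with trimmed-mean scaling, edgeR's own filter on low counts and Benjamini-Hochberg adjustment over all genes tested. IP over input, the difference between genotypes and the inputs were fitted on 18 libraries (12921 genes), and unbound over input on all 27 (13349 genes). A gene was called at an adjusted p below 0.05. A fold change refers to the fitted model, and per-lysate ratios to log2 CPM with a prior count of 2. On simulated counts for TDP-43 WT IP over input (12921 genes, 200 changed), the test recovered 25% of 2-fold and 63% of 4-fold changes with 5 false calls. P-values measure the spread between lysates of pooled heads.

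The gene list, the comparison lists and the tests were chosen with earlier results of these data known. Genes named with values are the paralog pairs, those that did not pass the filter, the 5 highest and 5 lowest levels per kilobase, the 5 largest called changes in each direction of each comparison, and the 3 genes least correlated with the rest. RpS23, and RpL13 and RpS15Ab where they were not among these, were named after their values were seen. The planned search for promoter motifs was not run. Fractions with the same library number come from 1 lysate by the study's methods, so numbers pair the samples. Deviations from the group means correlated between IP and input of a lysate at 0.06 to 0.73, and between unbound and input at 0.68 to 0.92. The value of 0.06 was that of W1, whose IP and unbound correlated at 0.04, and the next lowest for IP and input was 0.34 in Y2. The pairing of the W1 IP thus rests on its number alone. Alternatives were DESeq2 1.42.0, other scalings and filters, other sets of libraries, lysate as a block, the unbound fraction as the reference, each lysate left out, and, chosen after seeing the data, the label prefix as a term. With the prefix term a difference from YFP rests on Y3 alone, as no other genotype shares the prefix of Y1 and Y2. Counts of calls under alternatives are given without the share of all genes. A length trend (loess span 0.5) was removed from IP ratios as planned and from unbound ratios after seeing the data.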

Additional observations from a re-analysis of the deposited data

Results flagged for a closer look

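Unbound over input differed between genotypes by the test of the difference itself for 21 genes in TDP-43 WT minus YFP (5.06% of all genes were higher). It differed for 2 genes in TDP-43 G298S minus YFP, a smaller share than the 6.90% of all genes that were higher. The log2 differences for TDP-43 WT minus YFP were 1.59 for RpS25, 1.32 for RpL38, 1.32 for RpLP1, 1.29 for RpS15Ab and 1.27 for RpS26. All passed an adjusted p of 0.05 (edgeR, quasi-likelihood). For TDP-43 G298S minus YFP they were 1.00 for RpLP1 and 0.99 for RpS15Ab. None of the 21 calls held without W1, W3, S1, Y2 or Y3, or without mitochondrially encoded and rRNA genes. The calls for TDP-43 G298S minus YFP did not hold without Y2, Y3 or any single TDP-43 G298S lysate. With the label prefix as a term a difference from YFP rests on Y3 alone, so that fit cannot check these calls. Groups of 3 lysates were not tested for outlying samples.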

How the results depend on the processing

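The median of the group minus that of all genes stayed within 1 SD of the lysates in 266 of 276 alternatives. Some of these alternatives left out a lysate of a genotype outside the comparison, so every lysate compared was kept. This median was not set against the counts of calls on a common scale, so which was steadier was not tested. It moved with the unbound fraction as the reference, to -0.90 in TDP-43 WT IPs and to -1.15 in TDP-43 G298S IPs, and to -0.46, -0.74 and 0.21 for the differences TDP-43 WT minus YFP, TDP-43 G298S minus YFP and TDP-43 WT minus TDP-43 G298S. With the label prefix as a term, which leaves Y3 alone on the YFP side, it moved to 0.83 and 0.10 for the IP differences TDP-43 WT minus YFP and TDP-43 G298S minus YFP, and to -1.12 and -0.54 for the same pairs of inputs. For the inputs of TDP-43 WT minus TDP-43 G298S it was -0.65 to -0.45 with a lysate left out.

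Counts of genes called lower in IPs of TDP-43 WT (6) became 11 in DESeq2, 1 with library totals alone, 2 without mitochondrially encoded and rRNA genes, 3 with all 27 libraries, 3 with only the compared libraries, 76 with unbound as the reference and 1 to 9 with a lysate left out. Those of TDP-43 G298S (54) became 0 with library totals, 34 without mitochondrially encoded and rRNA genes and 15 to 63 with a lysate left out, and those of YFP (18) became 7 with library totals, 8 with only the compared libraries, 34 with unbound as the reference and 4 to 26 with a lysate left out. Genes called higher became 17, 10 and 3 with library totals in the 3 genotypes in the same order, 1 in TDP-43 WT with unbound as the reference and 2 in YFP with lysate as a block. For IP differences, 3 genes were called in TDP-43 G298S minus YFP with library totals. Counts under these alternatives, here and below, are given without the share of all genes.

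In inputs, the 19 lower genes of TDP-43 WT minus YFP became 8 with DESeq2's size factors, 1 with only the compared libraries, 6 with the label prefix and 2 to 52 with a lysate left out. The 1 of TDP-43 G298S minus YFP became 17 with library totals, 0 in DESeq2, with its size factors, with no filter, with at least 10 counts in every library, without mitochondrially encoded and rRNA genes, with all 27 libraries and with only the compared libraries, and 0 to 2 with a lysate left out. The 0 of TDP-43 WT minus TDP-43 G298S became 5 in DESeq2.

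In unbound over input, the 82 of TDP-43 WT became 0 with only the compared libraries and 36 to 82 with a lysate left out. The 42 of TDP-43 G298S became 79 in DESeq2, 82 with library totals, 82 with at least 10 counts, 12 without mitochondrially encoded and rRNA genes, 0 with only the compared libraries, 65 with lysate as a block and 0 to 65 with a lysate left out. The 21 of TDP-43 WT minus YFP became 59 in DESeq2, 61 with library totals, 37 with no filter, 67 with at least 10 counts, 0 without mitochondrially encoded and rRNA genes, 3 with only the compared libraries, 42 with lysate as a block, 0 with the label prefix and 0 to 43 with a lysate left out. The 2 of TDP-43 G298S minus YFP became 10 in DESeq2, 4 with its size factors, 60 with library totals, 17 with at least 10 counts, 1 without mitochondrially encoded and rRNA genes, 4 with only the compared libraries, 5 with lysate as a block, 0 with the label prefix and 0 to 10 with a lysate left out. The cause of these shifts was not tested. Lysate as a block changed no other count of calls by over 1.5 times, and it could not be fitted for inputs.

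Of single genes, RpL24-like turned sign in TDP-43 WT IPs (-0.31) and in those of TDP-43 G298S (-0.57) with unbound as the reference, and in YFP IPs, where it was 0.00, it lay at -0.010 with no filter, -0.019 with at least 10 counts, -0.070 without mitochondrially encoded and rRNA genes, -0.11 with all 27 libraries, -0.023 with only the compared libraries, -0.048 with unbound as the reference, and -0.12 to 0.26 with a lysate left out, below 0 without Y1 or Y2. RpS23 turned sign with unbound as the reference in IPs of TDP-43 WT (-0.43) and YFP (-0.17), and with library totals in those of TDP-43 G298S (0.52). RpLP0-like kept its direction and its call in the IPs of all 3 genotypes under every alternative run. The IP of S1, at 1848426 counts, was the shallowest library.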
